A study of Danio rerio with 12 samples.

Results

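The genes oxt, pmchl and pyya of the zebrafish encode precursors of secreted neuropeptides. Each is described here on every array of a study of control and lesioned adult retina. They were found as all probe sets whose only gene symbol in the platform annotation is 1 of these 3 symbols, which gave 4 probe sets (1 for oxt, 1 for pmchl and 2 for pyya) of 15502 on the array after the manufacturer's controls were left out. They are 3 of the 8793 genes that the array names by 1 symbol. Transcript levels were measured on 12 Affymetrix zebrafish arrays hybridized with biotin-labelled targets from total RNA. The arrays held 1 control brain and 1 retina called a "true" control. They also held a control and a lesioned retina for each of days 2, 3, 5, 7 and 14 after the lesion. The animals were adult zebrafish, and the submitters' design text describes control and lesioned animals as matched, with at least 8 per condition. The strain, the way the lesion was made, what distinguishes the true control from the day controls, and whether RNA was pooled are not stated in the labels. The true control and the 5 day controls are together called the 6 unlesioned retinas, although their labels say control and do not say unlesioned.

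A neuropeptide is cut from a larger precursor by proteases in the secretory pathway, stored in dense core vesicles and released to act on receptors coupled to G proteins. oxt encodes the precursor of the fish counterpart of oxytocin, which neurosecretory cells of the preoptic hypothalamus make and send to the pituitary. pmchl encodes a precursor of the melanin-concentrating hormone family, named for the skin paling that the peptide causes in bony fish, and such peptides are made by hypothalamic neurons. pyya encodes peptide YY a, a relative of neuropeptide Y that is made in brain and in endocrine cells of gut and pancreas.

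Signals are scaled intensities on a linear scale, and each value is 1 array. Both brain and retina matched their labels: the summed signal of 8 photoreceptor genes was 1087 in brain and 146136 to 162595 in the unlesioned retinas, and epd (ependymin, a marker of brain) was at 27559 in brain and at 3.1 to 32.8 in the 11 retinas. The arrays fell into 2 blocks of 6 by the signal of 9 hybridization control probe sets, which ran from 1419 to 1821 in block 1 and from 2612 to 4005 in block 2. Block 1 held the brain, the retina named true control, and days 2 and 14, while days 3, 5 and 7 made up block 2. The ratio of the GAPDH 5′ probe set to the 3′ probe set, a sign of RNA or target quality, ran from 0.692 to 0.854 in block 1, against 0.103 to 0.245 in block 2. The lower quartile of all signals ran from 69.5 to 80.0 in block 1, against 34.6 to 47.0 in block 2, so dim signals ran lower in block 2. The control and the lesioned array of each day shared a block, so a constant difference between blocks cancels in a matched ratio. Ratios of dim signals, and comparisons of ratios between days of different blocks, can still carry the difference. Within each pair the lesioned array also had the lower GAPDH ratio. Lesioned against control, it was 0.75 against 0.77 on day 2 and 0.10 against 0.16 on day 3. On days 5, 7 and 14 it was 0.16 against 0.20, 0.21 against 0.25 and 0.81 against 0.85. A matched ratio does not cancel a difference that goes with the lesion in this way.

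The signal of oxt was 2347 in brain and 31.4 in the true control retina. In the control retinas of days 2, 3, 5, 7 and 14 it was 25, 15.1, 9.2, 13.1 and 22.6. In the lesioned retinas of the same days it was 25.5, 55.9, 17.3, 27.1 and 13.4. Brain thus stood far above all 11 retinas, the highest of which was the lesioned retina of day 3. With a retina below the lower quartile of its array counted at that quartile, brain was at least 30.3-fold higher than every retina. The unlesioned retinas averaged 19.4 ± 8.34 (SD, n = 6), and 10 of 11 retinas lay below the lower quartile of their own array, the lesioned retina of day 3 being the exception.

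The signal of pmchl was 3106 in brain and 78.9 in the true control retina. The control retinas of days 2, 3, 5, 7 and 14 gave 38.6, 7.2, 44.3, 9.1 and 55.9, and the lesioned retinas of those days gave 45.2, 10.9, 12.4, 10.6 and 32.6. Brain was again the only high array, and by the same bound it was at least 39.4-fold higher than every retina. The unlesioned retinas averaged 39.0 ± 27.6 (SD, n = 6), and 9 of 11 retinas were below the lower quartile of their array, with the true control and the control of day 5 as the exceptions. At such signals a level of oxt or pmchl in retina cannot be told from background here, since detection calls were not used.

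The 2 probe sets of pyya gave a pattern unlike that of oxt and pmchl, because retina had a signal well inside the range of the array. The first, whose name ends in _at alone, read 1615 in brain, 211.0 in the true control retina, 287.5, 115.8, 94.7, 100 and 203.5 in the control retinas of days 2, 3, 5, 7 and 14, and 794.9, 254.5, 123.4, 78.7 and 199.0 in the lesioned retinas of those days. The second, DrAffx.2.42.S1_s_at, read 1560.5 in brain, 195.2 in the true control, 208.7, 71.0, 90.3, 102.7 and 223.8 in the control retinas, and 943.9, 247.9, 91.9, 101.9 and 147.9 in the lesioned retinas, in the same order of days. On both, brain was the highest array and the lesioned retina of day 2 the next, and brain stood at 2.03 and 1.65 times the signal of that retina.

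The unlesioned retinas averaged 168.75 ± 77.6 and 148.6 ± 67.8 (SD, n = 6 each) on the 2 pyya probe sets in that order, and none of the 11 retinas was below the lower quartile of its array on either. Much of this spread lay between the array blocks: the 3 unlesioned retinas of block 1 gave 203.5 to 287.5 and 195.2 to 223.8, and the 3 of block 2 gave 94.7 to 115.8 and 71.0 to 102.7, with no overlap. The median of all signals differed between blocks too, at 193.2 to 205.1 in block 1 against 133.7 to 152.1 in block 2. The share of all probe sets that separate by block in this way was not computed. The day of the lesion and the block cannot be told apart across these control arrays. On the log2(signal + 50) scale the first probe set minus the second lay between -0.24 and 0.45 on the 12 arrays, with a mean of 0.09 ± 0.23 (SD, n = 12), while the matched ratios given below differ more between them on some days. An ending of _s_at marks a probe set whose probes can match more than 1 transcript, which for the second one leaves related transcripts possible.

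**Figure D1:**
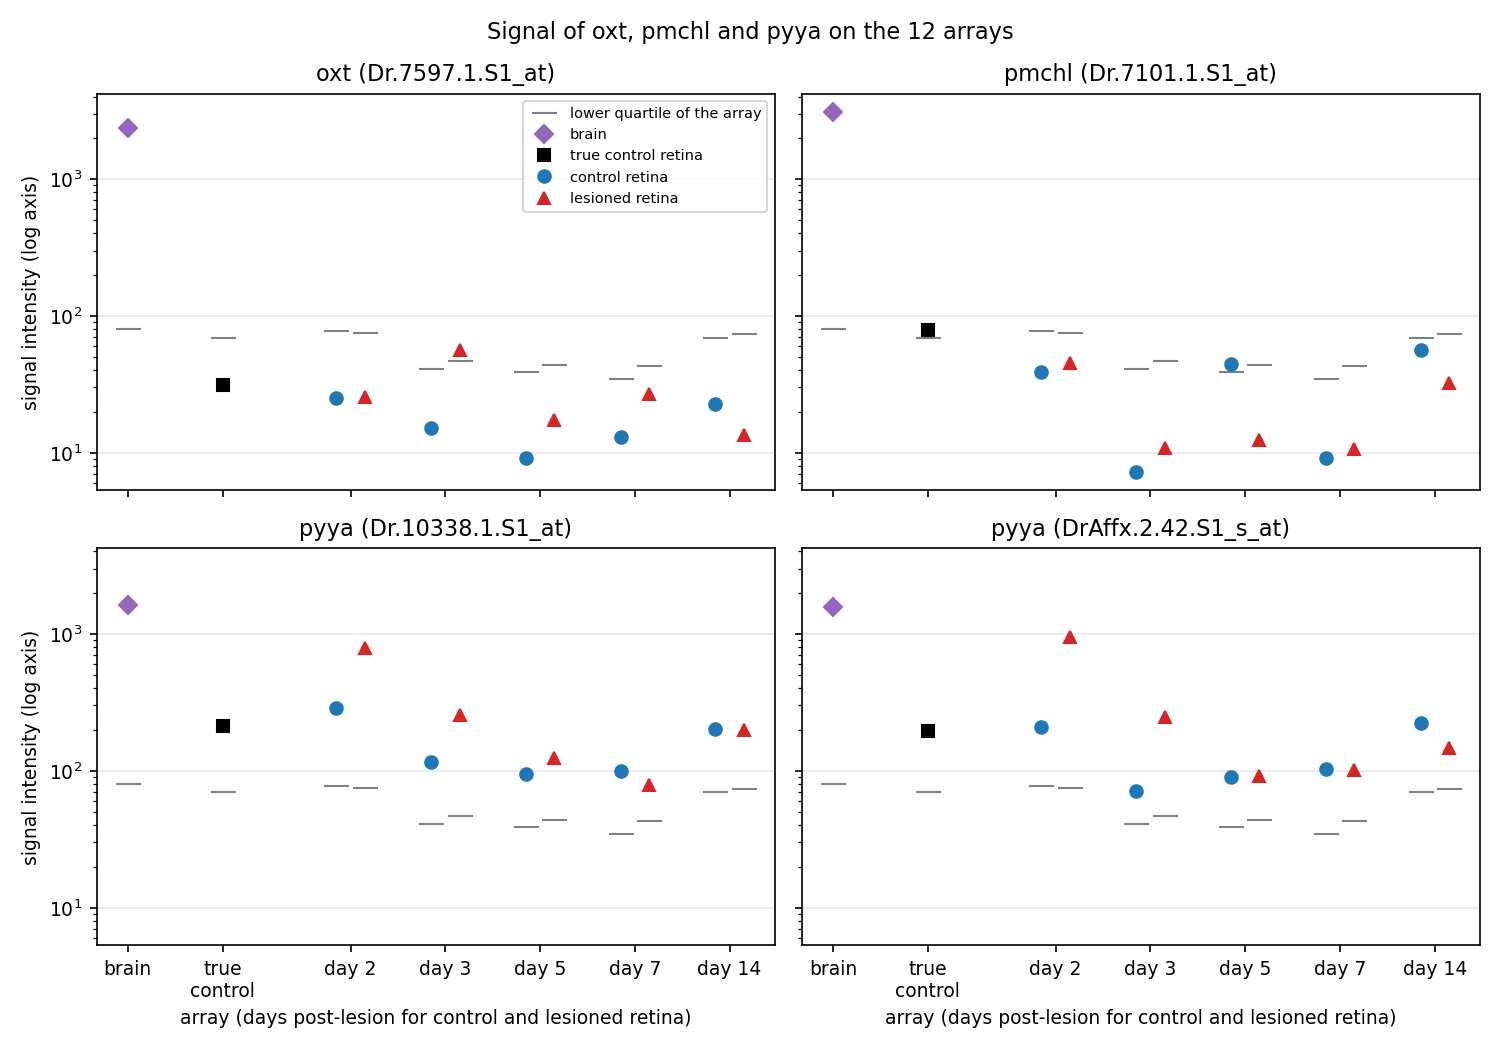
Signal (scaled intensity, log axis) of the 4 probe sets of oxt, pmchl and pyya on each of the 12 arrays, with 1 point per array and the lower quartile of that array as a tick. Brain is the highest array in all 4 panels, at 2347 for oxt, 3106 for pmchl, and 1615 and 1560.5 for pyya, and the lesioned retina of day 2 is the next highest only for pyya.

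Brain was compared with the 6 unlesioned retinas on log2(signal + 50) with limma, in which the 1 brain array was assumed to vary like the retinas. Of 9301 probe sets tested, 10.8% were called at an adjusted p under 0.05, and 6.28% were called higher in brain. All 4 probe sets of the 3 genes were called higher. oxt was higher in brain by 5.12 ± 0.33 (log2, SE; limma adjusted p = 3.9e-05) and pmchl by 5.21 ± 0.48 (limma adjusted p = 0.00032), sizes that depend on the pseudocount because retina was near background. oxt and pmchl passed the filter on dim probe sets only through the brain array, so their calls are a description. The 3 genes were also chosen with earlier results of these data known. The calls of all 4 probe sets are therefore a description too. So are the ranks of pyya, and its calls in the lesioned retinas, given below.

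pyya was higher in brain by 3.00 ± 0.48 (log2, SE; 8.02-fold, limma adjusted p = 0.00584) on the first probe set and by 3.09 ± 0.49 (8.54-fold, limma adjusted p = 0.00559) on the second. Among all 9301 tested, the 2 pyya probe sets ranked 77 and 74 by the size of the rise in brain. The median change of all tested probe sets was 0.149. Nothing in the sources says which arrays came from separate animals, so a p-value here reflects the spread among these arrays alone, part of which may be technical, and an exact permutation test of 1 array against 6 cannot give a p below 0.143.

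Brain lay in block 1, and against the 3 unlesioned retinas of that block alone the differences were 4.97 for oxt, 4.89 for pmchl, and 2.56 and 2.64 for pyya (log2). All 4 were called there too, in a comparison with 27.7% of probe sets called. With a pseudocount of 16 in place of 50 the difference was 6.09 for oxt and 6.01 for pmchl, and with 100 it was 4.36 and 4.55. In tissue RNA, fewer cells of a type and less RNA per cell cannot be told apart.

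The rest of the peptide system was read from lists of genes, each represented by its probe set with the highest mean signal. Among other precursors of neuropeptides and peptide hormones, 24 genes were on the array, and brain exceeded every retina in 20 of them, as it did for 25.6% of all 15502 probe sets. With no filter the median change of the 24 was 1.45, and that of all probe sets was 0.22 (log2). Of the 24, 14 passed the filter and 6 were called, all higher in brain, where 6.28% of all tested probe sets were called higher. Of the 14, 3 passed only through the brain array, penkb and rln3a among them, so the calls of these genes are a description, as for oxt and pmchl.

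The 6 were penkb (a proenkephalin, precursor of opioid peptides) at 3.75 ± 0.34, adcyap1b (a PACAP precursor) at 3.61 ± 0.39, rln3a (a relaxin 3 precursor) at 3.41 ± 0.70, sst1.1 (somatostatin) at 3.25 ± 0.52, sst6.2 (of the somatostatin family) at 1.52 ± 0.28 and npy (neuropeptide Y) at 1.02 ± 0.26 (log2 change, SE). Named after its values were seen, the vasotocin precursor avp, the closest relative of oxt, had a signal of 538.7 in brain and 46.9 to 259.3 in the unlesioned retinas, and its difference of 1.75 ± 0.58 was not called (limma adjusted p = 0.105). npy, of the same family as pyya, had a signal of 640.5 in brain and 256.3 to 368.1 in the unlesioned retinas.

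**Figure D2:**
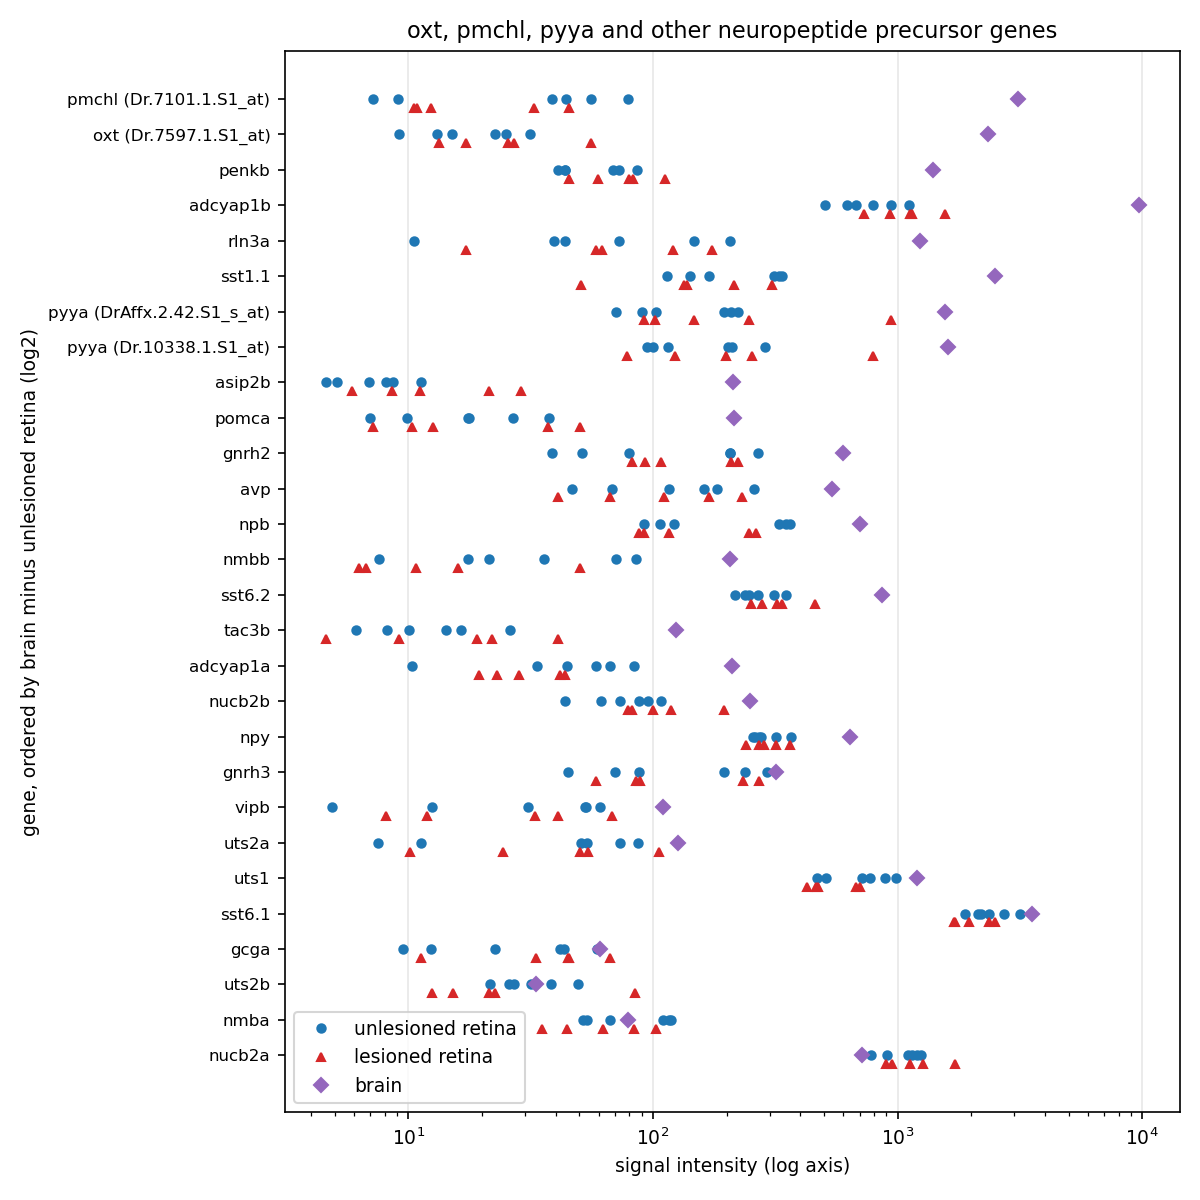
Signal (scaled intensity, log axis) of oxt, pmchl, pyya and the other precursor genes on the array, with the brain array and the retinas as separate points in each row. Rows are compared within themselves only, since levels of different probe sets are not on 1 scale, and brain lies above every retina in 20 of the 24 other genes, against 25.6% of all probe sets.

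Of the genes for processing and storage of peptides, 11 were on the array and 9 were tested between brain and retina. The called ones were 4 higher in brain and 1 lower, against 6.28% and 4.56% of all tested probe sets. ptprn2 and ptprna, membrane proteins of dense core vesicles, were higher by 2.90 and 1.76, chga (chromogranin A, a vesicle core protein) by 2.50 and pcsk1nl (an inhibitor of a prohormone convertase) by 1.45, while scg3 (secretogranin III) changed by -1.24 (log2). The gene cpe (carboxypeptidase E, which trims peptides after cleavage), also named after its values were seen, gave -0.08 (limma adjusted p = 0.895).

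Of the receptors for these peptides and their relatives, 6 genes were on the array (mchr1a, mchr1b and mchr2b of melanin-concentrating hormone, and npy4r, npy8ar and npy8br of the neuropeptide Y family), and all 6 fell below the filter in every comparison. npy4r had a signal of 158.4 in brain and 40.6 to 218.4 in the 11 retinas, so brain lay inside the range of the retinas. mchr1b had a signal of 88.3 in brain and 4.2 to 121.6 in the retinas. No receptor was therefore tested.

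Among 15 transcription factor genes of hypothalamus and preoptic area on the array, 5 were tested and all 5 were called, where 10.8% of all tested probe sets were. pou3f2b at 3.42 and foxb1a at 2.98 were higher in brain, but both passed the filter only through the brain array, so their calls are a description. By contrast rx3 at -2.93, fezf2 at -2.82 and isl1a at -2.04 were lower in brain (log2), all 3 being genes with known roles in retina or forebrain neurons too. The brain signals of rx3 and fezf2 were 52.0 and 25.7, below the lower quartile of the brain array. These 2 genes passed the filter only through the retinas, so their calls are a description as well. otpb (orthopedia b), a factor that oxt neurons of the zebrafish need, was below the filter and is named after its values were seen. Its signal was 293.9 in brain and 1.0 to 33.2 in the 11 retinas. Brain lay inside the range of the retinas for sim1a and arnt2, also below the filter and named after their values were seen. sim1a was at 69.3 in brain and 3.4 to 91.5 in the retinas, and arnt2 at 73.6 and 39.4 to 122.9. Brain exceeded every retina in 9 of the 15 genes, as it did for 25.6% of all probe sets.

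The question of the lesioned retinas is whether the 3 genes moved after injury, and the matched ratio of a day is the lesioned minus the control array of that day on log2(signal + 50). For oxt the ratios were 0.01, 0.70, 0.19, 0.29 and -0.20 on days 2, 3, 5, 7 and 14. For pmchl they were 0.10, 0.09, -0.60, 0.04 and -0.36. The highest oxt ratio, on day 3, lay within the 5th to 95th percentile of all 15502 probe sets on that day, which ran from -0.65 to 0.75, whereas the pmchl ratio of day 5 lay below the 5th percentile of its day, -0.53.

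Over the 5 days the mean ratio of oxt was 0.20 ± 0.34 and that of pmchl was -0.14 ± 0.32 (log2, SD, n = 5 days). An exact two-sided sign-flip permutation test over the days gave p = 0.312 for oxt and p = 0.50 for pmchl, where 0.0625 is the smallest p that 5 days allow. Neither gene passed the filter in the comparison of retinas. With no filter and all 15502 probe sets tested, the limma adjusted p was 0.577 for oxt and 0.700 for pmchl. At signals below the lower quartile of most arrays, no change of either gene after the lesion was detectable in these tests.

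For pyya the ratios on days 2, 3, 5, 7 and 14 were 1.32, 0.88, 0.26, -0.22 and -0.03 on the first probe set and 1.94, 1.30, 0.02, -0.01 and -0.47 on the second. In signal the lesioned retina stood at 2.76 and 4.52 times its matched control on day 2, and at 2.2 and 3.49 times on day 3. The ratios of days 2 and 3 lay above the 95th percentile of all probe sets, which was 0.54 on day 2 and 0.75 on day 3. On days 5 and 7 both probe sets lay inside the 5th to 95th percentile range. On day 14 the second one lay below the 5th percentile, -0.37, and the first did not.

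By size of the ratio among 15502 probe sets, the 2 pyya probe sets ranked 77 and 25 on day 2 and 498 and 99 on day 3. In signal, the lesioned retina of day 2 stood at 2.76 and 4.22 times the highest unlesioned retina of its block, and that of day 3 at 2.2 and 2.41 times the highest of its own block. The lesioned arrays of days 2 and 3 were therefore above all unlesioned arrays of the same block on both probe sets. Each is 1 array against 3, and the share of all probe sets placed in this way was not computed, so this is a description. The 254.5 of the lesioned retina of day 3 on the first probe set was still below the 287.5 of the control of day 2, an array of the other block. Such a placement was not particular to pyya. The dim signal of oxt in the lesioned retinas of days 3, 5 and 7 stood at 3.70, 1.15 and 1.79 times the highest unlesioned retina of that block.

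**Figure D3:**
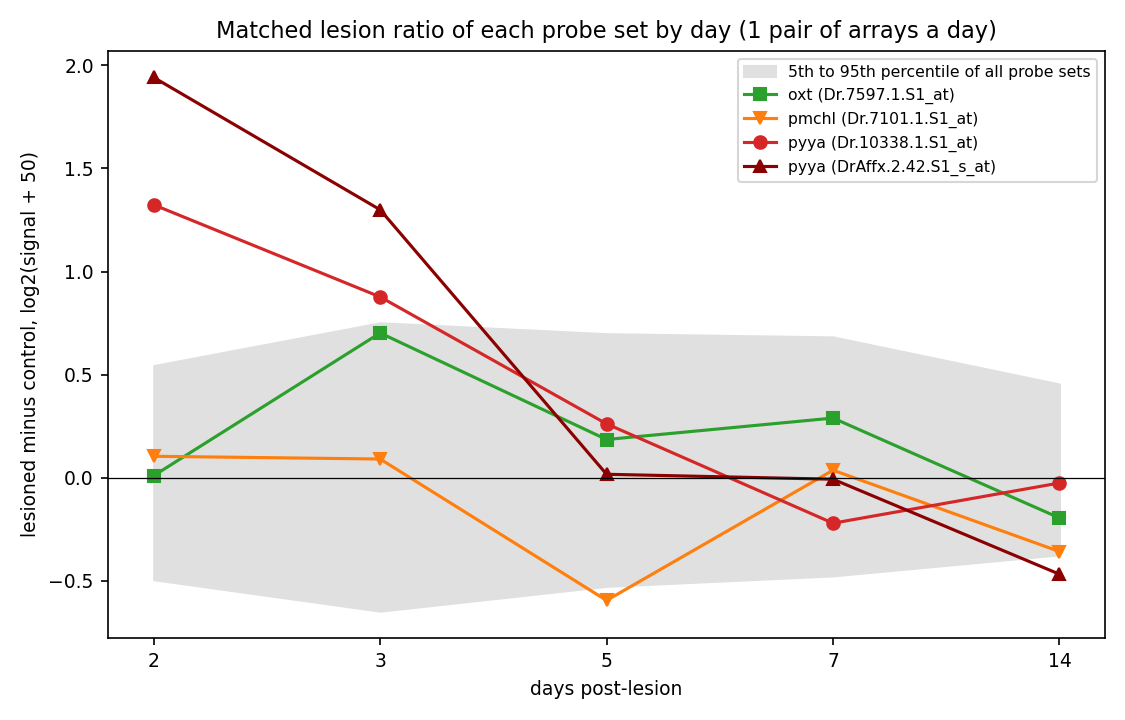
Matched lesion ratio (lesioned minus control, log2(signal + 50)) on days 2, 3, 5, 7 and 14, drawn at equal spacing, for the 4 probe sets, with the band from the 5th to the 95th percentile of all 15502 probe sets. Both pyya probe sets lie above the band on day 2 (1.32 and 1.94) and day 3 (0.88 and 1.30), while oxt lies inside it on every day.

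The mean change of pyya over the days was not called. In limma with the day as a block, 4.17% of 9301 probe sets were called and 3.62% were called higher in the lesioned retinas. The first pyya probe set gave 0.44 ± 0.19 (log2, SE; limma adjusted p = 0.214) and the second 0.56 ± 0.26 (limma adjusted p = 0.286). The ratio was above 0 on 3 of 5 days on each, and the exact two-sided sign-flip permutation test gave p = 0.25 and p = 0.375. Without day 2 the mean change was 0.22 and 0.21. Within the 2 pairs of block 1 it was 0.65 and 0.74, and within the 3 pairs of block 2 it was 0.31 and 0.44, none of them called.

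Each lesioned array was also compared with the 6 unlesioned retinas. On day 2, 0.0538% of the 9301 probe sets were called, and neither pyya probe set was, at 2.02 ± 0.49 (limma adjusted p = 0.952) and 2.4 ± 0.49 (limma adjusted p = 0.663). With the array block as a term in the fit, 0.129% were called on day 2, the second pyya probe set among them at 1.94 ± 0.22 (limma adjusted p = 0.00816), while the first gave 1.59 ± 0.24 (limma adjusted p = 0.0512). In these fits the lesioned side is 1 array, so the error comes from the unlesioned retinas alone, and the pairing by day is not used. On day 3 limma called no probe set without the block term (764 had an unadjusted p under 0.05), and pyya gave 0.55 and 0.66. With the block term it gave 0.99 ± 0.24 and 1.12 ± 0.22 on day 3 (limma adjusted p = 0.188 and 0.164), where 0.086% of probe sets were called.

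On days 5, 7 and 14 pyya was not called against the unlesioned retinas. The 2 probe sets gave -0.26 and -0.41 on day 5, -0.69 and -0.31 on day 7, and 0.26 and 0.07 on day 14 (log2). Over all probe sets limma called 0.0108% on day 5 and none on day 7 (400 at an unadjusted p under 0.05) or on day 14 (120). The signs of days 5 and 14 on both probe sets, and of day 7 on the second, turned with the block term in the fit.

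**Figure D4:**
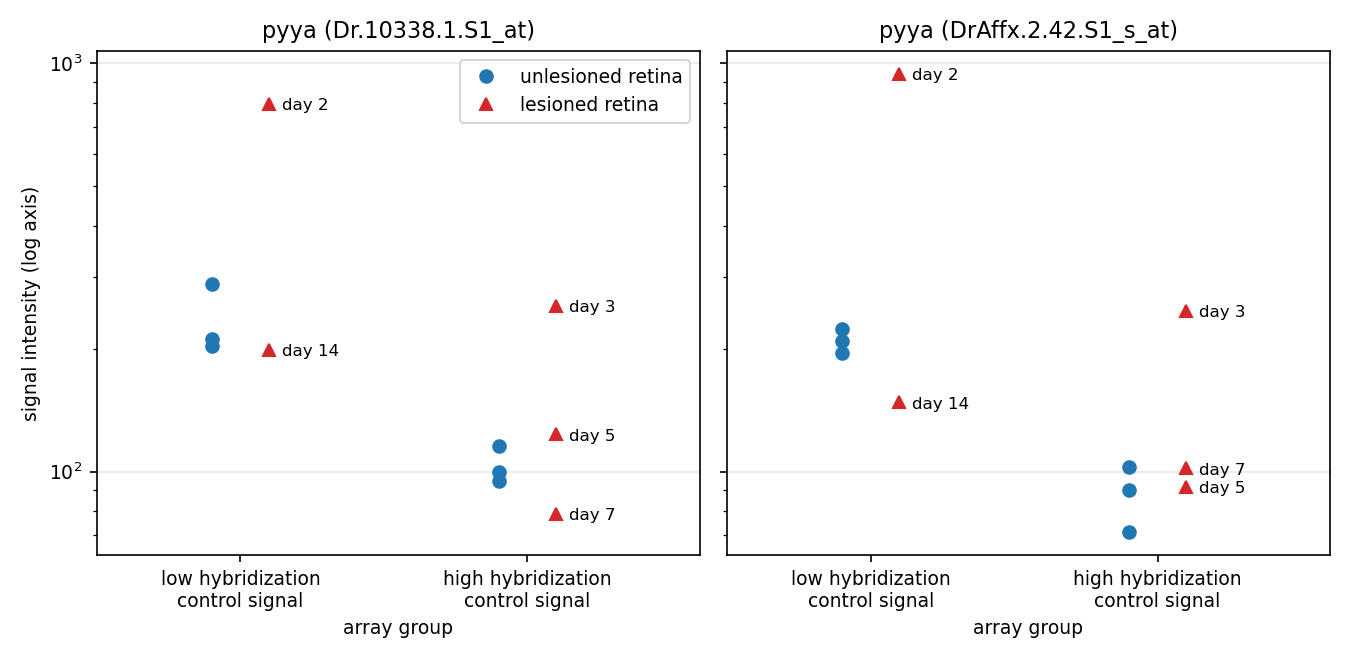
Signal (scaled intensity) of the 2 pyya probe sets in the unlesioned and lesioned retinas of each array block, with 1 point per array. Unlesioned retinas of block 1 (203.5 to 287.5 and 195.2 to 223.8) and block 2 (94.7 to 115.8 and 71.0 to 102.7) do not overlap, and the lesioned arrays of days 2 and 3 lie above the unlesioned arrays of their own block. The share of all probe sets with either pattern was not computed.

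The fall of the pyya ratio with time was tested as a slope against log2 of the day, in a fit that also held a term for each day and left 3 residual degrees of freedom. Of all probe sets tested, 0.108% were called. pyya was chosen with earlier results of these data known, so a call of it here is a description. The second pyya probe set was called at -0.88 ± 0.14 per doubling of the day (log2, SE; limma adjusted p = 0.0361), and the first gave -0.53 ± 0.14 (limma adjusted p = 0.457). The call of the second was lost when day 2, 3, 7 or 14 was left out (limma adjusted p = 0.368, 0.0561, 0.0986 and 0.0712, with slopes of -0.74, -0.86, -0.87 and -1.18), with a pseudocount of 16 (0.0508) and with no filter (0.174).

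Markers of other cell types moved on the same days. Of 10 immune cell genes, 8 were higher in the lesioned than in the control retina on day 2 (median ratio 0.95), 9 on day 3 (0.97), 10 on day 5 (1.05), 10 on day 7 (0.87) and 9 on day 14 (0.19). Their summed signal was 2800 to 5590 in the unlesioned and 5116 to 12317 in the lesioned retinas. Of 5 erythrocyte genes, 4 were higher on day 2 (median ratio 0.64) and 4 on day 3 (0.95). Of 8 photoreceptor genes, 0 were higher on day 2 (median ratio -0.28, summed signal 150747 in the control and 122707 in the lesioned retina) and 3 on day 3 (-0.40). Of 8 genes of Müller glia, 4 were higher on day 2 (0.00) and 4 on day 3 (0.14). Over the days 2 of these 8 were called, fabp7a at 1.42 and apoeb at 0.46 (log2), where 4.17% of all tested probe sets were called. In the same comparison 6 of 9 tested immune cell genes were called higher. Of 8 photoreceptor genes 1 was called lower, and 0 of 4 tested erythrocyte genes were called. The part of these cell types in the pyya ratios was not tested.

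Endocrine cells of pancreas and gut also make peptide YY. The list used for pancreas and gut had 9 genes on the array. Of these, ctrb.1, ela2 and prss1 encode digestive enzymes of the exocrine pancreas, so the list is not of endocrine cells alone. Of the 9 genes, 3 were higher in the lesioned retina on day 2 (median ratio -0.08) and 7 on day 3 (0.28). Their summed signal was 10646 in the control and 9983 in the lesioned retina of day 2, and 11014 and 14371 on day 3. Most of that sum comes from neurod1, which retinal neurons also express, at 5468 to 11482 in the 11 retinas. The hormone genes ins (insulin) and gcga (glucagon) lay at 8.9 to 48.0 and 9.5 to 66.9 in the 11 retinas, near background. The ins ratio was above 0 on all 5 days, from 0.25 to 0.67, but at these dim signals. Other genes of the list changed sign between days. On days 3 and 5 the ratios were 0.68 and -0.61 for gcga, -0.44 and 0.18 for pdx1, and 0.92 and -0.31 for sst2. The part of endocrine cells was not tested. The summed signal of 11 genes of amacrine and inner retinal neurons was 33845 and 29587 on day 2 and 46928 and 45192 on day 3, in the control and the lesioned retina.

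Other precursor genes were read beside pyya in the lesioned retinas. Over the days, limma called 0 of the 11 tested (4 had an unadjusted p under 0.05), where 4.17% of all tested probe sets were called and 18.1% had such an unadjusted p, and the median change was -0.00 for the list and -0.01 for all tested probe sets. The smallest p-values belonged to adcyap1b at 0.43 ± 0.14 (limma adjusted p = 0.0992), uts1 (a urotensin precursor) at -0.35 ± 0.11 (limma adjusted p = 0.0994), sst1.1 at -0.33 ± 0.15 and sst6.2 at 0.23 ± 0.10. On day 2 the matched ratios of the 24 genes ran from -0.40 to 1.33 with a median of 0.00. The highest, rln3a at 1.33, lay beside the 1.32 of the first pyya probe set and below the 1.94 of the second. The rln3a signal of the day 2 control, 39.5, was below the lower quartile of that array, 77.4. Its lesioned signal of 174.6 was below the 205.9 of the true control. The next highest, adcyap1b at 1.16, went from 675.9 in the control to 1570.0 in the lesioned retina. That was above every unlesioned retina, the highest of which gave 1116.1. Of the peptide processing genes, limma called 0 of 10 tested over the days (3 had an unadjusted p under 0.05). Those with the smallest p were scg5 at -0.28 ± 0.10, pcsk1nl at -0.25 ± 0.10, ptprna at -0.28 ± 0.11 and scg3 at -0.19 ± 0.10 (log2, SE).

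Likeness to each member was measured as the root mean square difference of log2 profiles over the 12 arrays, each relative to its mean over the unlesioned retinas. Only genes named by 1 symbol were searched, with probe sets at or above the 40th percentile of mean log2 signal over the 12 arrays. Genes dim on most arrays could therefore not appear as neighbours. The 5 genes nearest to oxt and the 5 nearest to pmchl were the same 5. They were cyp19a1b (brain aromatase, of radial glia), zic1 (a transcription factor), cp (ceruloplasmin), ca8 (a carbonic anhydrase relative) and pvalb7 (a parvalbumin), at 0.25 to 0.49 from oxt and 0.36 to 0.48 from pmchl. This likeness mostly describes 1 brain array standing above 11 retinas.

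The profile nearest to the first pyya probe set was that of chga, at 0.42, followed by the chemokine gene ccl19a.1 at 0.51, actc1b at 0.52, cox6b1 at 0.53 and syt9a at 0.53. Nearest to the second were ccl19a.1 at 0.55, chga at 0.58, cox6b1 at 0.62, sox11b at 0.63 and si:dkey-19b23.7 at 0.64. The chga probe set in both is the dimmer of 2 by mean signal, with a day 2 ratio of 0.55. The brighter chga probe set, used above for the comparison with brain, had a day 2 ratio of 0.02. By the 5 matched ratios alone, the first pyya probe set was nearest to ccl19a.1 at 0.25, nolc1 at 0.26 and glulb, pdia3 and angptl4 at 0.28 to 0.29. The second was nearest to slc39a3 at 0.48, irf1b (an interferon regulatory factor) at 0.50, junba at 0.51, steap4 at 0.51 and junbb at 0.52. The jun genes are immediate early transcription factors. This steap4 probe set had a day 2 ratio of 1.56, whereas another probe set of steap4 had 0.05. Among the genes searched, none came closer to the ratios of the second pyya probe set than 0.48. Ratios share their arrays, so these are descriptions without a test.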

How the data were processed

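Each deposited value is a probe set's linear intensity on 1 array. The submitters' processing notes name GCOS, Affymetrix's own software, with no version or settings. The deposited intensity had a mean of 499.1 to 499.8 on every array after the lowest and highest 2% were left out, so each array had been scaled. Of 15617 probe sets 115 were manufacturer's controls. The platform annotation named 10795 probe sets by 1 symbol and 135 by several, and lists no symbol for 4572, and 10711 matched the current gene table. No coordinates or sequences are given.

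The scale used was log2(signal + 50), which understates changes of dim probe sets. The filter left out those whose mean of the group means was under the 40th percentile. Tests used limma 3.58.1 (lmFit, eBayes with trend) in R 4.3.3, with Benjamini-Hochberg adjustment over all tested. Python 3.11.15, pandas 2.3.3, numpy 2.4.6 and matplotlib 3.10.9 were used for the rest. The fit was tested on simulated data. Blocks were split at the widest gap of the hybridization controls.

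Pairing by day comes from the design text and titles. The deviations from the group means of each pair had a correlation of 0.819 (day 2), 0.706 (day 3), 0.666 (day 5), 0.720 (day 7) and 0.853 (day 14). Arrays of different days were not correlated in this way, and both arrays of a pair share a block. These correlations therefore cannot tell pairing by day from a shared block. The members and gene lists were chosen with earlier results of these data known. Values are given for every probe set of the 3 genes. Of a list, called genes are named (up to 6, by size), or else the 4 with the smallest p, and the 5 nearest profiles are named. Genes nearest to oxt and pmchl by ratios are not given, since their retinal signals were near background. Alternatives were other pseudocounts, filters, quantile normalization, eBayes without a trend, array block, GAPDH ratio, no pairing, and each array or day left out.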

Additional observations from a re-analysis of the deposited data

Results flagged for a closer look

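Among the 5 lesioned retinas, the signal of pyya on day 2 stood far from the others on both probe sets, at 794.9 on the first and 943.9 on the second, by Dixon's test for a single distant value. These were 2 of 12 groups tested on the signal scale. The 2 are probe sets of 1 gene on the same array, the groups share arrays, and the 5 lesioned retinas are of different days. The count therefore cannot be set against the about 1 in 20 that chance marks among independent groups. On the log2 scale 0 of the 12 groups had such a value. The pyya lesion ratio also differed between days in the test of its slope, at -0.88 (log2) per doubling of the day on the second probe set. The first gave -0.53, which was not called (limma adjusted p = 0.457).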

How the results depend on the processing

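The higher brain signal of all 4 probe sets kept its direction and call under all 14 alternatives for each. None of these could leave out the 1 brain array on which the calls rest. The change of pyya over the days was not called under any of 14 alternatives for each probe set. Without the pairing by day (no replicate block) it was 0.44 and 0.56, with a limma adjusted p of 0.99999 on both, and within block 1 and block 2 it also was not called. The 60th percentile filter leaves pyya untested among retinas and gives no value there. With the array block as a term, the day 2 change of the second pyya probe set became called at 1.94 (limma adjusted p = 0.00816), because the spread between blocks no longer counts as error. The same term turned small, uncalled changes: the first probe set to 0.18 on day 5 and -0.18 on day 14, and the second to 0.047 on day 5, 0.15 on day 7 and -0.39 on day 14. That last change was also -0.19 after quantile normalization, and ranged from -0.059 to 0.18, being -0.059 without the control of day 3 and -0.016 without that of day 5, with 1 unlesioned array left out. The cause of the last 2 was not tested. The call of the slope of the second pyya probe set was lost under 6 of 10 alternatives. The number of probe sets called moved more than 1.5 times. For brain it was 1008, against 2194 with the block term and 2580 within block 1. Over the days it was 388, against 236, 197 and 171 without day 3, 5 or 7, 215 with the stricter filter, 14 with the GAPDH ratio as a covariate, and 0 without pairing or in block 1 alone. On day 2 it was 5, against 12 with the block term, 0 with a pseudocount of 16 or any unlesioned array left out, 9 with no filter and 3 with the stricter one. On days 3, 5 and 7 it was 0, 1 and 0, against 8, 8 and 6 with the block term, and for the slope 10, against 1 to 6 under 6 alternatives. Each lesioned day has 1 array, and signals near background limit what can be said of oxt and pmchl in retina.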
